A study of Rattus norvegicus with 6 samples.

Results

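Somites are the paired blocks of paraxial mesoderm that bud in sequence from the presomitic mesoderm on either side of the neural tube, and later give rise to vertebrae, skeletal muscle and dermis. Their spacing is set by a segmentation clock, an oscillation of Notch pathway genes such as Lfng and Hes7 in the presomitic mesoderm, while T-box and Mesp factors place each boundary and Meox, Tcf15 and Pax factors act in the formed somite. The heart primordium arises from the neighbouring lateral plate mesoderm, and Mesp1 also marks the early progenitors of the heart. The signal of 10 such genes, Tcf15, Meox1, Meox2, Tbx6, Mesp1, Mesp2, Pax1, Lfng, Hes7 and Dll3, was described here in microarrays of the rat heart primordium. They were taken by name and were found on 13 of 30367 probes.

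Total RNA came from heart primordia of Wistar rat embryos at embryonic day 10, with no treatment or genetic change given in the labels. In the pre-heartbeat group the primordium was flat and did not yet beat (n = 3 arrays), and in the post-heartbeat group its centre was raised and beating had begun (n = 3 arrays). The groups were defined by this shape. Their ranges of somite number overlapped, with that of the post-heartbeat embryos the higher, so age in somites and heartbeat cannot be told apart here. The number of primordia per array is not given in the sources used here, and nothing says that the arrays of a group came from separate litters, so a p-value measures only the spread between these arrays.

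Each RNA was hybridised in 1 colour to an Agilent rat array, and the arrays lay on 2 slides. Slide 1 carried the arrays of pre-heartbeat 1, post-heartbeat 1 and post-heartbeat 2, and slide 2 those of pre-heartbeat 2, pre-heartbeat 3 and post-heartbeat 3. Every value below is log2 of the processed signal less the array's own 75th percentile of all spots other than controls, so that 0 is that percentile. Levels of different probes are not comparable, because each probe binds its target with its own strength. A probe was tested when its signal was well above background, by the scanner software's own flag, on all 3 arrays of at least 1 group, and 19299 probes (63.6%) met this. The 3 arrays per group limit the precision.

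Of the 10 genes, 6 were tested (Tcf15, Hes7, Dll3, Pax1, Lfng and Tbx6) and 4 were not (Meox1, Meox2, Mesp1 and Mesp2). Hes7 and Tcf15 read above the 75th percentile on every array, Dll3 and Pax1 below it, and Lfng and Tbx6 not far above background. Between the groups, none of the 6 tested genes passed the test (limma, adjusted p under 0.05, where 0.14% of all tested probes passed, 0.119% higher and 0.0207% lower in the post-heartbeat group). The 6 differences lay above 0, with a median of 0.54 against -0.03 over all tested probes. One of them, Tbx6 (0.58), was tested only through the post-heartbeat group, where it was higher, and the 4 genes that the filter left out had differences, with no filter, of -0.63 for Mesp1, -0.48 for Meox2, -0.04 for Meox1 and 0.07 for Mesp2. The 10 genes thus did not all lie on one side of 0. At an unadjusted p under 0.05, 1 of the 6, Dll3, passed, against 7.01% of all tested probes. With the slide as a block, 1 of 6, again Dll3, was higher in the post-heartbeat group, against 1.16% of all tested probes (1.62% in either direction). The test of the methods, a pooled 2-group comparison at 1.5 fold and an unadjusted p under 0.05, also selected Dll3 as higher, with 1.89% of all tested probes.

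**Figure D1:**
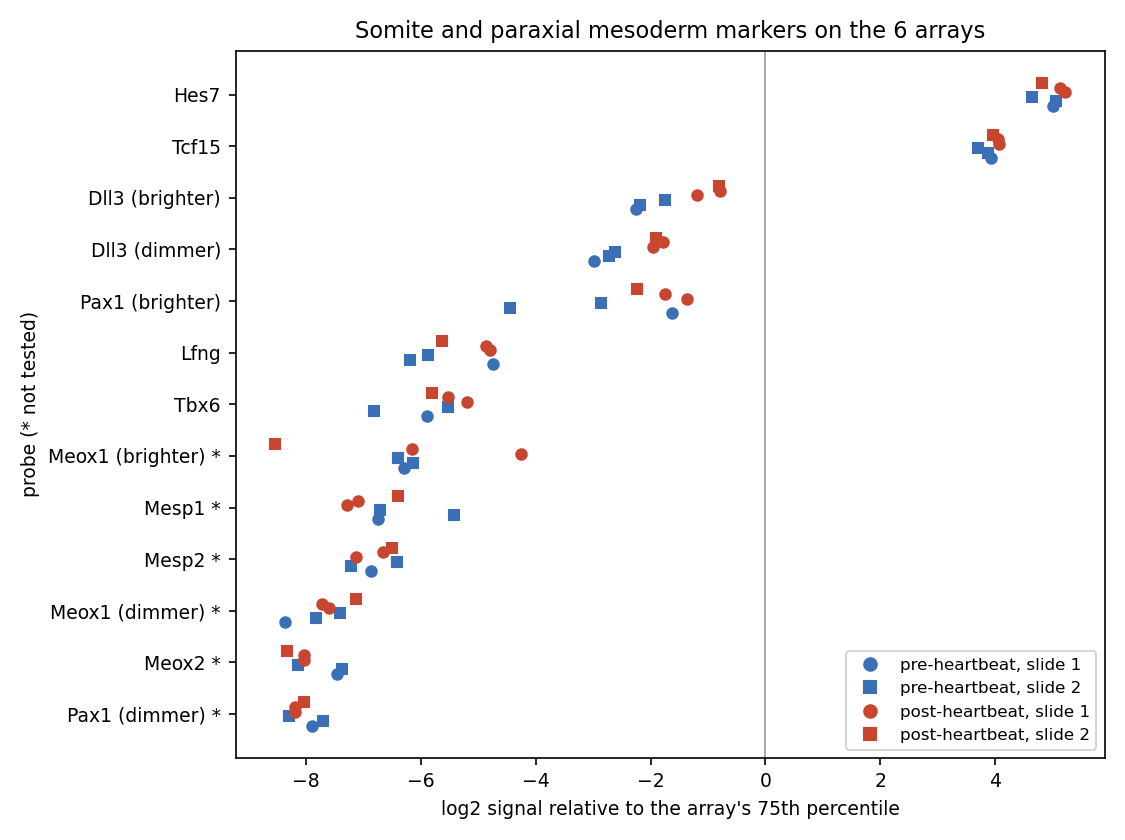
Log2 signal relative to the array's 75th percentile (x axis) of the 13 probes of the 10 markers (y axis) on the 6 arrays, coloured by group and shaped by slide, with probes that were not tested marked by an asterisk. Hes7 and Tcf15 lie above 0 on every array, Dll3 splits by group, Pax1 and Lfng split by slide, and the 6 probes at the bottom lie near background.

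Dll3, a divergent Notch ligand that acts inside the cell and is needed for regular segmentation, was the member with the clearest difference between the groups. It had 2 probes, at rn4 chr1:83373480-83373539 and chr1:83373806-83373865 on the minus strand, both well above background on all 6 arrays. Because the difference rests on them, the sequence of the second is shown, with its longest run of G and C in capitals.
Dll3, dimmer probe: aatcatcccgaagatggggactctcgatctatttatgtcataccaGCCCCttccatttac

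The brighter Dll3 probe read -2.25, -2.19 and -1.76 in pre-heartbeat replicates 1, 2 and 3, and -1.18, -0.80 and -0.81 in post-heartbeat replicates 1, 2 and 3. The dimmer probe read -2.99, -2.72 and -2.62 before and -1.95, -1.78 and -1.91 after. On both probes every post-heartbeat array lay above every pre-heartbeat array, as it did, in this direction, on 5.38% of all tested probes.

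The brighter probe was 2.19-fold higher in the post-heartbeat group, a log2 difference of 1.13 (SE 0.19, 95% interval 0.67 to 1.59), and this did not pass limma's test (adjusted p = 0.109). The dimmer probe differed by 0.90 (SE 0.15, adjusted p = 0.109 in limma). An exact permutation test over the 6 arrays gave p = 0.1 (two-sided) for each, the smallest that 3 against 3 arrays allow. With the slide as a block the log2 differences were 1.21 and 0.94, and both passed limma's test (adjusted p = 0.0232 and 0.0269). Within slide 1 the brighter probe was higher by 1.25 after the first beat, and within slide 2 by 1.16. Between the slides it differed by 0.23 (SE 0.18, adjusted p = 0.41 in limma), with a 95% interval of -0.19 to 0.64. The 2 probes lie close together on 1 transcript and are not separate evidence.

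Markers of other tissues are given beside Dll3. The summed level of 15 cardiac muscle markers, as multiples of the 75th percentile, was 379 to 641 before and 695 to 840 after, and 14 of the 15 had a group difference above 0. By limma 0 of the 15 tested genes were called (0.14% of all tested probes), and with the slide as a block, the fit in which Dll3 passed, 3 were higher (1.16% of all tested probes), the sarcomere genes Myh7 (1.19, adjusted p = 0.0223), Myh6 (1.06, adjusted p = 0.0324) and Myl4 (1.04, adjusted p = 0.0324). In the neural plate list, 10 of 12 genes of which were on the array, the summed level was 7.21 to 8.43 before and 3.29 to 4.09 after. Most of that sum was Otx2, a forebrain and midbrain factor, at 2.61, 2.57 and 2.73 before and 1.09, 0.96 and 1.19 after on the log2 scale, and it was the 1 gene of 7 tested called lower (-1.56, adjusted p = 0.0199 in limma, 0.0207% of all tested probes). With the slide as a block Hesx1, a forebrain factor, was lower too (-1.65, adjusted p = 0.0171 in limma, 0.461% of all tested probes). Of the 7 tested neural genes, 4 had a group difference above 0, and the list's median difference was 0.13. One of the 4, Gbx2 (0.97), was tested only through the post-heartbeat group, where it was higher. With the slide as a block 3 of the 7 lay above 0, and the median was -0.17. Six3 and En2 were not well above background on any array. The summed level of yolk sac endoderm markers was 52.9 to 56.7 before and 34.5 to 46.0 after, and most of it was Ttr (-0.58). The summed level of erythroid markers was 0.974 to 1.96 before and 2.15 to 2.47 after, and its largest part was Hbb. Of 6 tested erythroid genes, Hbb (1.22), Hbe2 (1.04) and Hbz (0.72) were higher after. The others, Alas2 (-0.61), Klf1 (-0.25) and Tal1 (-0.05), were lower. By limma 0 tested genes of these lists were called (0.14% of all tested probes), and 0 with the slide as a block (1.62%). The sums of the endothelial list and of the pharyngeal and gut endoderm list overlapped between the groups. The part of any of these tissues in the Dll3 difference was not tested, and in bulk RNA more cells of a type cannot be told from more RNA per cell.

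**Figure D2:**
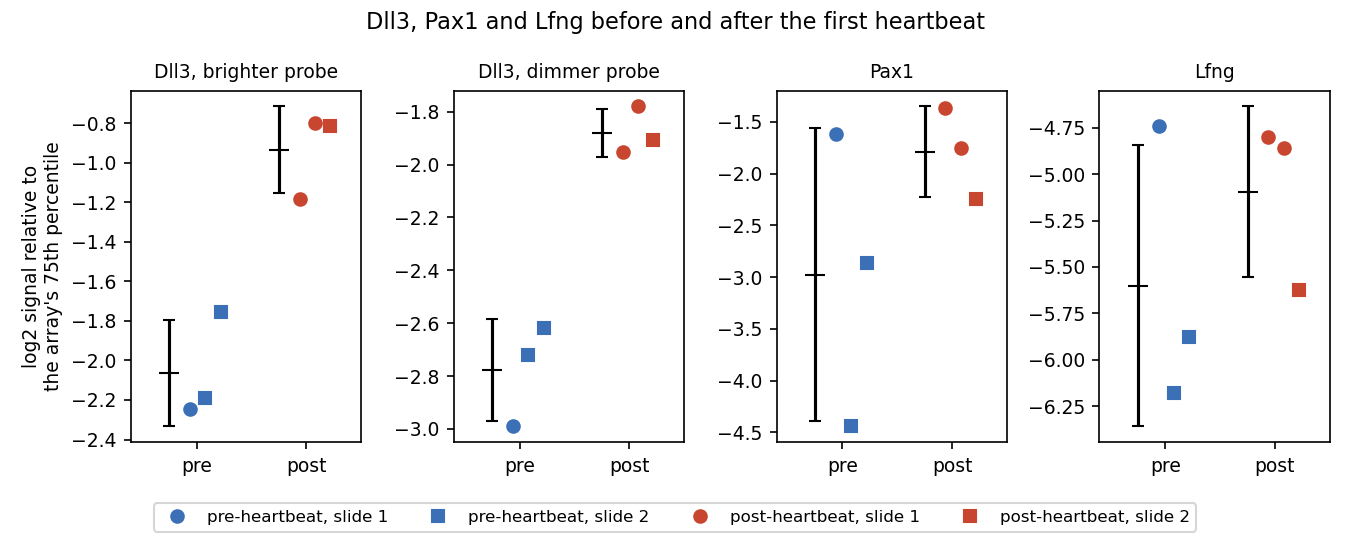
Log2 signal relative to the array's 75th percentile (y axis, scaled separately in each panel) of both Dll3 probes, the brighter Pax1 probe and Lfng in the pre- and post-heartbeat groups, with the mean and SD of 3 arrays as bars and 1 point per array. The groups do not overlap for Dll3, whereas for Pax1 and Lfng the squares of slide 2 lie below the circles of slide 1 in both groups.

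The clock members were measured with very unequal signal. Hes7, a transcriptional repressor whose own protein shuts off its gene in each clock cycle, was the brightest of the 10. It read 5.0, 5.06 and 4.64 in the pre-heartbeat replicates and 5.22, 5.13 and 4.82 in the post-heartbeat replicates, above 96.8% of all probes. The groups overlapped, and the difference was 0.16 (SE 0.18, 95% interval -0.27 to 0.59, adjusted p = 0.866 in limma).

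The Hes7 probe, at rn4 chr10:55882141-55882200 on the plus strand, was 75% G and C, and is shown because its composition stands apart. The capitals mark its longest unbroken run of G and C, 9 bases.
Hes7: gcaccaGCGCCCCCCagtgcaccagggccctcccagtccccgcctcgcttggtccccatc

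Of 112 other probes with at least as high a share of G and C, the median level was -2.86 and 4.46% were brighter than Hes7. The median of all probes was -3.85. Whether the probe binds other transcripts was not tested.

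Lfng, a glycosyltransferase of the Golgi that alters Notch signalling in each clock cycle, read -4.74, -6.18 and -5.88 before and -4.80, -4.86 and -5.62 after (rn4 chr12:14497705-14497764, minus strand). The group difference was 0.51 (SE 0.41, 95% interval -0.45 to 1.47, adjusted p = 0.866 in limma), and the groups overlapped. It was 0.22 without pre-heartbeat replicate 2, 0.94 without pre-heartbeat replicate 1, 0.77 without post-heartbeat replicate 3, 0.16 with the slide as a block and 0.07 with normexp. All 3 arrays of slide 2 lay below all 3 of slide 1. With the group in the fit, Lfng was 2.06-fold lower on slide 2, a log2 difference of -1.04 (SE 0.17, adjusted p = 0.00738 in limma), and it was the only one of the 6 members called between the slides, where 16.3% of all tested probes were called and 8.75% were lower on slide 2. A count of 1 in 6 is close to that background.

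The Lfng signal was weak, and 8 of its 12 spot readings were well above background. Of its 2 spots, the brighter was so on all 6 arrays and read -4.55, -3.91 and -4.56 on slide 1 (pre-heartbeat 1, post-heartbeat 1 and 2) and -4.64, -5.17 and -4.87 on slide 2 (pre-heartbeat 2 and 3, post-heartbeat 3). The other was above background on 2 arrays and spread from -7.72 to -4.93. The slide difference shrank with another background correction, normexp (-0.19, adjusted p = 0.44 in limma). The call, though not the direction, was also lost without pre-heartbeat replicate 1 (-0.79, adjusted p = 0.102) and without post-heartbeat replicate 3 (-1.29, adjusted p = 0.0551).

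Tbx6, the T-box factor that holds presomitic cells to a mesodermal fate, read -5.89, -6.82 and -5.53 before and -5.19, -5.52 and -5.80 after. It was well above background on 2 of 3 pre-heartbeat and 3 of 3 post-heartbeat arrays, and the groups overlapped. The difference was 0.58 (SE 0.34, 95% interval -0.23 to 1.38, adjusted p = 0.866 in limma), and it was 0.21 without pre-heartbeat replicate 2 and 0.10 with normexp.

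Mesp1 and Mesp2, basic helix-loop-helix factors of which Mesp2 sets the anterior border of the next somite, were at or near background. Mesp2 was well above background in 0 of 12 spot readings and ranged from -7.21 to -6.41 over the arrays. Mesp1 was so in 2 of 12 readings, 1 spot on each pre-heartbeat array of slide 2, and read -6.75, -5.43 and -6.70 before and -7.29, -7.09 and -6.39 after. Neither gene was tested, and signal at this level does not show that the transcripts were absent.

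Among the factors of the formed somite, Tcf15 (paraxis), which is needed for the somite's epithelial form, was bright on every array. It read 3.92, 3.86 and 3.70 before and 4.06, 4.04 and 3.96 after, above 94.9% of all probes. Every post-heartbeat array lay above every pre-heartbeat array, but the difference was small, 0.19 (SE 0.13, 95% interval -0.12 to 0.51), and did not pass limma's test (adjusted p = 0.866). Tcf15 and Dll3 were the 2 of 6 tested members whose groups did not overlap, against 11.5% of all tested probes.

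The level of Tcf15 rested on 1 probe with 1 spot, at rn4 chr3:142497313-142497372 on the plus strand. Of its 60 bases, 24 are an unbroken alternation of G and T, which is shown in capitals because other probes with such a run were bright too.
Tcf15, alternating run: GTGTGTGTGTGTGTGTGTGTGTGT

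On the whole array, 4 other probes had a run at least this long, those listed for Pax3, Cyb5r1, Spag7 and RGD1306000, and all 4 lay above the 75th percentile, from 3.16 to 4.89, where 22.1% of all probes did. By run length, the median level was -3.86 over 30260 probes with a run of at most 7 bases, -2.43 over 92 probes with 8 to 11, -0.27 over 4 with 12 to 15, 2.38 over 5 with 16 to 19, and 3.91 over the 6 with 20 or more, Tcf15 among them. The differences between the groups of the 5 long-run probes also lay close together, 0.19 for Tcf15 and 0.11 to 0.17 for the others, none past the test (adjusted p = 0.866 for each in limma). These 5 probes varied over the 6 arrays by 0.17 to 0.36. What part of the Tcf15 signal came from Tcf15 transcript was not tested.

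**Figure D3:**
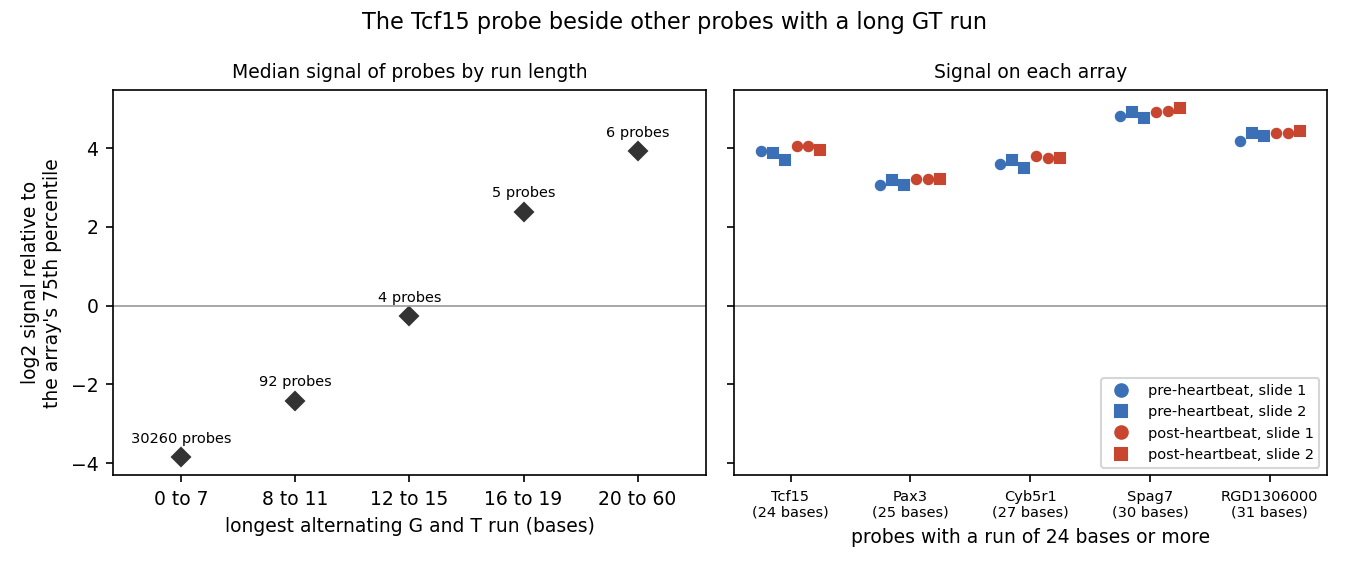
Left, median log2 signal relative to the array's 75th percentile (y axis) of all probes grouped by the length of their longest alternating run of G and T (x axis), with the number of probes. Right, the 5 probes with a run of 24 bases or more on each of the 6 arrays, coloured by group and shaped by slide; all lie above 3 on every array, the Tcf15 probe among them.

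Meox1, a homeobox factor of early somites that acts with Meox2 in the sclerotome and myotome, was close to background. Its 2 probes were each well above background on 1 array, and not on the same one. The brighter read -6.29, -6.14 and -6.40 before and -4.26, -6.14 and -8.53 after, and was above background in post-heartbeat replicate 1. The other ranged from -8.35 to -7.12 and was so in post-heartbeat replicate 3. Meox2 ranged from -8.33 to -7.37, with 0 of 12 spot readings well above background. Neither gene could be tested, and a bright Tcf15 probe thus stood beside Meox1 and Meox2 near background.

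Pax1, a paired box factor of the sclerotome that is also used in the pharyngeal pouches, had 2 probes that disagreed. The probe at rn4 chr3:136018736-136018795 was well above background on all 6 arrays, and the one at chr3:136012473-136012532 on none, where it ranged from -8.30 to -7.69. Which of them reads the Pax1 transcript was not tested. The brighter read -1.62, -4.44 and -2.86 before and -1.37, -1.76 and -2.24 after, the widest range of the tested members, 3.08.

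The Pax1 arrays overlapped between the groups and did not overlap between the slides. On slide 1 (pre-heartbeat 1, post-heartbeat 1 and 2) they read -1.62, -1.37 and -1.76, and on slide 2 (pre-heartbeat 2 and 3, post-heartbeat 3) they read -4.44, -2.86 and -2.24. With the group in the fit, slide 2 minus slide 1 was -1.36 (SE 0.44, 95% interval -2.38 to -0.34), which missed the threshold (adjusted p = 0.074 in limma). It passed without pre-heartbeat replicate 2 (-0.92, adjusted p = 0.0215), without pre-heartbeat replicate 3 (-1.60, adjusted p = 0.0228) and without post-heartbeat replicate 2 (-1.54, adjusted p = 0.0219), all in limma. It did not pass without pre-heartbeat replicate 1 (-0.68, adjusted p = 0.594), without post-heartbeat replicate 1 (-1.37, adjusted p = 0.136) or without post-heartbeat replicate 3 (-2.03, adjusted p = 0.154). With normexp the Pax1 slide difference passed (-0.98, adjusted p = 0.00111 in limma), where that of Lfng did not. With quantile normalization it did not pass (-1.32, adjusted p = 0.119 in limma). Of 16 alternatives, it passed in 7. Pax1 and Lfng were the 2 of 6 tested members whose slides did not overlap, both lower on slide 2, against 42.5% of all tested probes (18.3% lower on slide 2).

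Between the groups Pax1 differed by 1.19 (SE 0.66, 95% interval -0.37 to 2.74, adjusted p = 0.866 in limma). Within slide 1 the difference was 0.06 and within slide 2 it was 1.41, and without pre-heartbeat replicate 2 it was 0.45. Of 10 tested genes of the pharyngeal and gut endoderm list, in the tissue under the heart, 0 were called between the slides by limma (16.3% of all tested probes were), and their summed level was 12.4 to 13.2 on slide 1 and 11 to 14.9 on slide 2. The yolk sac endoderm list had 7 of 11 tested genes called lower on slide 2, against 8.75% of all tested probes. Its summed level was 40.9 to 55.5 on slide 1 and 34.5 to 56.7 on slide 2. Most of that sum was Ttr, which was not among the 7 (0.12 between the slides, adjusted p = 0.654 in limma). The part of these tissues in the slide differences of Lfng and Pax1 was not tested.

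**Figure D4:**
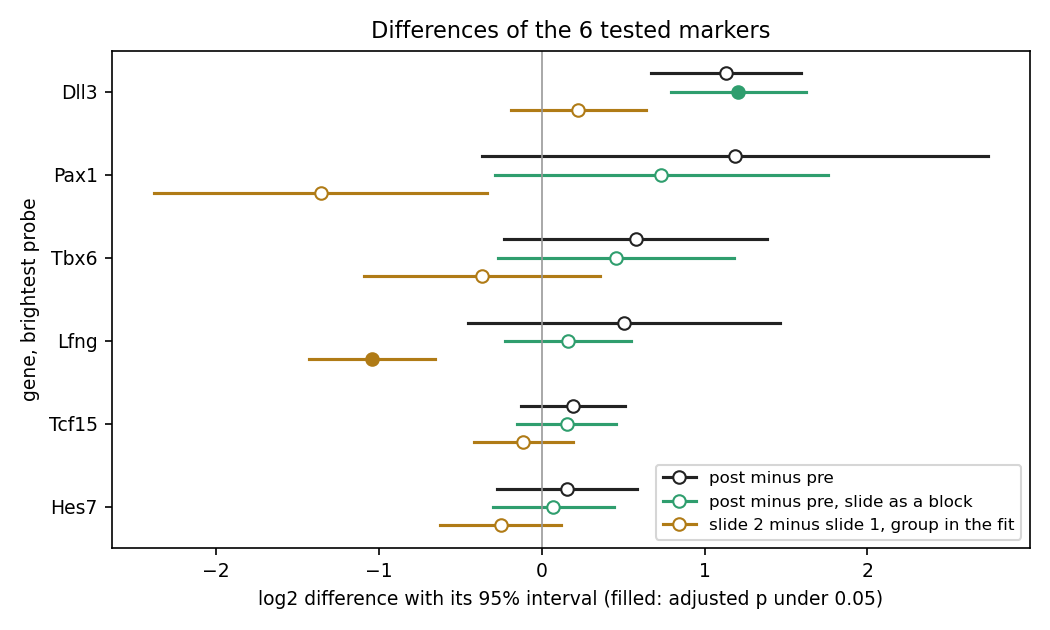
Log2 differences (x axis) with 95% intervals of the brightest probe of the 6 tested markers (y axis), between the groups without and with the slide as a block and between the slides with the group in the fit; filled points passed limma's adjusted p under 0.05. Only Dll3 with the slide as a block, at 1.21, and Lfng between the slides, at -1.04, are filled.

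The genes whose pattern over the 6 arrays was most like that of the brighter Pax1 probe, by the root mean square difference after each probe was centred on its mean, included Obsl1 (0.18), LOC689416 (0.24), Tnk2 (0.25) and Emilin1 (0.26). All 4 had their lowest value in pre-heartbeat replicate 2, as Pax1 did. This likeness is a description over 6 arrays.

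Wider somite lists were read in the same fits. They held 55 names, 51 of them on the array and 34 tested, with T and Tbxt being names of 1 gene. Between the groups 0 of 34 were called by limma, and with the slide as a block 1 was higher and 5 were lower, against 1.16% and 0.461% of all tested probes. Of the 34, 9 had groups that did not overlap, against 11.5% of all tested probes. Among the 9, Tbx18 and Eya1 were each tested only through the group where they were higher. Pax3, also among them, was read by a probe with a long run of alternating G and T.

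Of 22 presomitic genes on the array, 16 were tested, where 63.6% of all probes were, and 4 were well above background on no array. T, Wnt3a, Fgf8, Cdx1, Cyp26a1 and Rspo3 were among those well above background on all 6 arrays. Dll1, the main Notch ligand of that tissue, Msgn1, a target of Tbx6 and Wnt signals that drives presomitic cells to mature, Hes5 and Cdx4 were well above background on 0 of 6 arrays. So was Ripply2, which ends Tbx6 activity at the new boundary. In the differentiation list, 9 of the 18 genes on the array were tested. Another 8 were well above background on 0 arrays: the myogenic factors Myod1 and Myf6, and Pax7, Sox9, Sim1, Dmrt2, Lbx1 and Zic1. Ripply1, Cer1 and Nkx3-2 were not found by name. Dll3 was well above background and Dll1, read by 1 probe, was not. Levels of different probes are not comparable, and a reading at background does not show that a transcript was absent.

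In the presomitic list, 16 of 23 names were tested. With the slide as a block 3 fell, Lef1 (-1.06, adjusted p = 0.0324), a nuclear partner of Wnt signalling, Dkk1 (-0.95, adjusted p = 0.0333), a secreted Wnt inhibitor, and Cyp26a1 (-0.82, adjusted p = 0.031), which degrades retinoic acid, all by limma. All 3 had groups that did not overlap. Lef1 read -1.23, -1.50 and -1.14 before and -2.07, -2.51 and -2.38 after. These 3 are opposite in sign to Dll3. The other Notch pathway genes, Notch1, Hes1, Nrarp, Hey1, Rbpj and Pofut1, had group differences of -0.23 to 0.20, none past the test. Of the 16 tested genes of the list, 8 had a group difference above 0, and the median was -0.04. Sp5 (1.02), Rspo3 (0.67) and Fgf8 (0.56) had the sign of Dll3 and did not pass. Sp5 was tested only through the post-heartbeat group, where it was higher.

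Of 9 tested genes of segment boundary and polarity, 2 fell with the slide as a block, the adhesion molecules Pcdh8 (-1.03, adjusted p = 0.025) and Cdh11 (-1.15, adjusted p = 0.029), both by limma. Tbx18, which marks the anterior part of each somite and also the proepicardium, read -5.50, -7.18 and -5.61 before and -4.54, -4.49 and -4.44 after. Its difference of 1.60 did not pass (adjusted p = 0.31 in limma). It was well above background on 2 of 3 pre-heartbeat and 3 of 3 post-heartbeat arrays, and so was tested only through the group where it was higher. Of 9 tested genes of somite differentiation, Scx, a factor of tendon progenitors, was the one that rose with the slide as a block (0.74, adjusted p = 0.047 in limma). Eya1 (-0.85), a transcriptional cofactor in early muscle and placodes, did not pass. It was tested only through the pre-heartbeat group, where it was higher.

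Between the slides, 2 of the 34 were higher on slide 2 and 11 lower, against 7.57% and 8.75% of all tested probes. The 2 were Wnt3a, a Wnt ligand of the tail bud (0.98, adjusted p = 0.00511), and Rbpj, the nuclear partner of Notch (0.59, adjusted p = 0.0408), both by limma. The 11 included Foxc1 (-1.53), Foxc2 (-1.53), Twist1 (-1.48) and Snai1 (-1.13), factors used in mesenchyme, T (-1.30), Fgf8 (-0.88) and Sp5 (-1.59), genes of the primitive streak and tail bud, Pcdh8 (-0.68), and Scx (-0.85) and Myf5 (-0.60) of the differentiation list. Lfng, the called member, had the same direction as the 11.

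Twist1, a factor of mesenchyme in many tissues, read -1.10, -1.31 and -2.31 on slide 1 (pre-heartbeat 1, post-heartbeat 1 and 2) and -3.14, -2.31 and -3.16 on slide 2 (pre-heartbeat 2 and 3, post-heartbeat 3). Its lowest values, like those of Foxc1, Foxc2 and Snai1, lay on slide 2. None of these genes belongs to the somite alone, as the head, pharyngeal and lateral plate mesoderm use them too.

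**Figure D5:**
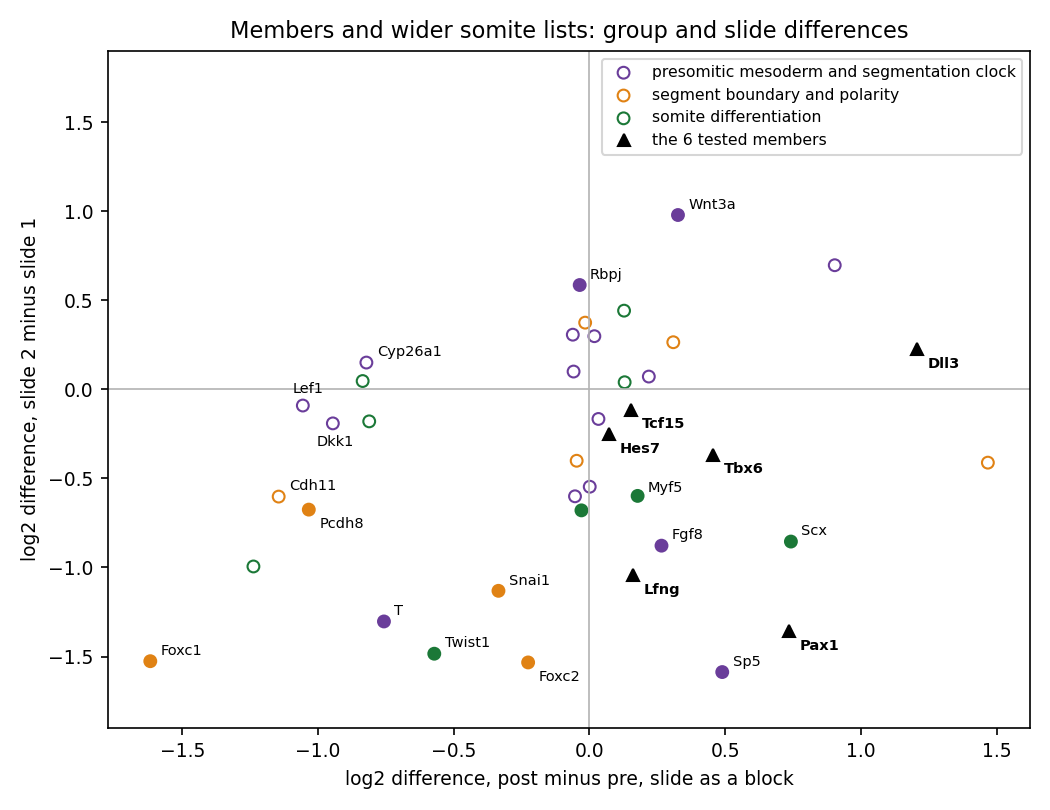
Log2 difference between the groups with the slide as a block (x axis) against log2 difference between the slides (y axis) for the 34 tested genes of the wider lists (circles, filled where the slide difference passed limma's test) and the 6 tested members (triangles); names mark the members and genes called in either comparison. Dll3 lies far right at 1.21 and near 0 between the slides, while Pax1 and Lfng lie low, beside Twist1, Foxc2, Scx and Sp5.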

How the data were processed

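Heart primordia of 2 groups were measured on 6 single-colour rat arrays, 1 per sample. The authors deposited scanner files with processed signal, mean signal and background intensity per spot (Agilent Feature Extraction 10.7.3.1, probe positions on rn4), and a table of ratios that the authors made with a 75th percentile shift. From the intensity, log2 values less each array's 75th percentile over 58717 spots were computed. That percentile was 1146 to 1702, 39375 to 41327 spots per array were well above background and 0 were saturated. Spots of a probe were averaged without outlier-flagged spots, and a probe counted as above background where at least 0.5 of its spots were.

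limma 3.58.1 in R 4.3.3 was fitted to all 19299 tested probes, 2 of which lacked a value on an array, with Benjamini-Hochberg adjustment over all of them and a threshold of 0.05. The script was checked on simulated data. The slide comparison had the group as a term. A gene with several probes was called by its brightest. The methods' test was a pooled 2-group comparison with 1.5 fold and an unadjusted p. Arrays carry no read depth, so precision rests on their number.

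The members, lists and tests were chosen with earlier results of these data known. Of the wider lists, genes past the threshold between groups or slides and the 3 with the largest group difference per list were named, with values, except genes not reported here. Genes above background on no array, the Notch pathway genes and the long-run probes were named after their values were seen. The array's accessions of 9 of 10 members matched the symbol in a RefSeq table (GRCr8), all but Pax1. Alternatives changed the background correction, normalization, filter, values, variance model, test, blocks and arrays used.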

Additional observations from a re-analysis of the deposited data

How the results depend on the processing

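Between the groups, 27 probes passed limma's test (23 higher, 4 lower), and 312 did with the slide as a block, 49 with normexp, 14 with quantile normalization, 1 with no filter, 13 with the authors' ratios and 45 with an intensity trend. Leaving out 1 array gave 0 to 2. The methods' test selected 587 probes at 1.5 fold and an unadjusted p under 0.05. With no fold cut, 0 passed that test after Benjamini-Hochberg adjustment, and 1352 had an unadjusted limma p under 0.05. Among members 0 were called, and 1, Dll3, with the slide as a block or the methods' test. The Dll3 difference kept its sign in all 18 alternatives, from 0.96 to 1.29, with adjusted p from 0.0232 to 0.489. The members' median of 0.54 was 0.19 with normexp, 0.31 with the slide as a block and 0.23 without pre-heartbeat replicate 2.

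Between the slides, 3148 probes were called, 1364 with no filter and 246 to 3820 without 1 array (246 without post-heartbeat replicate 3, 739 without pre-heartbeat replicate 1, 1470 without post-heartbeat replicate 1). Of the members 1 was called, Lfng, or Pax1 in its place with normexp. The count was 2 with the filter on all 6 arrays or the trend, and 0 to 3 without 1 array. The value was 0 without pre-heartbeat replicate 1 or post-heartbeat replicate 3, and 3 without pre-heartbeat replicate 3, with Tbx6 (-0.65, adjusted p = 0.0436) the third beside Lfng and Pax1. Without the group term Dll3 differed by -0.18 between the slides. Where a result changed, the cause was not tested.

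Deviations of same-numbered arrays correlated at 0.65 and 0.49 for replicates 1 and 3, whose arrays shared a slide. For replicate 2, whose arrays lay on different slides, the correlation was -0.28. Differently numbered arrays on a shared slide correlated at 0.50 (pre-heartbeat 1 with post-heartbeat 2) and 0.50 (pre-heartbeat 2 with post-heartbeat 3). Those on different slides correlated at -0.73 to -0.36. Of the same-numbered arrays only those of replicate 2 lay on different slides, and whether the replicate numbers pair the arrays was not tested. With the replicate block, 144 probes and 1 member, Dll3, were called between the groups (1.13, adjusted p = 0.0436 in limma). Between the slides 3 members were called, Lfng, Pax1 and Tbx6. The slide differences of Dll3 (-0.39), Hes7 (0.13) and Tcf15 (0.019) changed sign, none past the test. In this fit only replicate 2 had arrays on both slides, so these slide results depend on that replicate.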
